A study of Homo sapiens with 6 samples.

Results

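Matrix glycoproteins and proteoglycans were examined in LX2 cells, an established line of human hepatic stellate cells, after knockdown of METTL3. The genes were taken from a list of 41 symbols, and those with a row in the deposited expression table and a mean of 50 or more over the 6 libraries were kept. This left 36 genes among the 12413 genes that passed the same limit, of 12654 in the table. CTHRC1, ELN, MFAP2, MFAP4 and MFAP5 were not analysed here. The lowest mean among the 36 was 106.2, for FBLN5, so the limit removed no gene that had a row.

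The matrix between cells is built from collagens and from glycoproteins that join fibres to each other and to cells. Proteoglycans carry long sulfated sugar chains, which bind growth factors and water. In the liver, stellate cells are the main source of this material, and in fibrosis they become myofibroblasts and lay it down in excess. METTL3 is the catalytic subunit of the complex that adds the N6-methyladenosine (m6A) mark to RNA, and by the title of the series the question was how its loss bears on stellate cell activation.

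All 3 groups were LX2 cells that received a pLKO.1 lentivirus, made in HEK293T cells, which are a human embryonic kidney line. The virus was applied for 10 h with polybrene at 1 µg/ml, infected cells were selected in puromycin at 1 µg/ml, and the medium was high-glucose DMEM containing 10% serum. The control group, shLuc, carried a hairpin against firefly luciferase, and the groups shMETTL3-1 and shMETTL3-2 each carried a different hairpin against METTL3. Each group had 2 libraries. No source used here says whether they came from separate cultures, so each p-value reflects no more than the spread from library to library. The sources used here do not say whether the selected cells were a pool or a clone.

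The deposited values are called scores here, because all 6 columns share a median of 552 and a maximum of 72566 and so do not hold raw counts. The depth of each library is therefore unknown, scores of different genes are not set against each other, and the value of a gene at the maximum is truncated. The median gap between replicates, over all genes tested and on the log2 scale, lay between 0.0766 and 0.102. METTL3 scored 536 and 552 in the shLuc libraries, 274 and 256 under shMETTL3-1, and 148 and 132 under shMETTL3-2. Of 11 markers of stellate cells and myofibroblasts 9 were listed, and DES and LRAT were not analysed here. Of these 9, 8 passed the limit on low scores. The other, RGS5, scored 107 and 64 in shLuc, 12 and 16 under shMETTL3-1, and 38 in both shMETTL3-2 libraries. Of the 8, 5 fell and 0 rose under shMETTL3-1 and 6 fell and 1 rose under shMETTL3-2. Among all genes tested, 28.4% fell and 30.3% rose under shMETTL3-1, and 28.8% fell and 30.8% rose under shMETTL3-2. ACTA2, the smooth muscle actin of activated stellate cells, TAGLN, PDGFRB and THY1 fell under either hairpin (log2 -3.20, -1.95, -1.40 and -0.69, then -2.54, -0.71, -0.41 and -0.28). COL1A2 fell under shMETTL3-1 (-1.18) and changed by -0.40 under shMETTL3-2 (adjusted p = 0.0864). VIM (0.24, then -1.61) and COL1A1 (0.00, then -0.71) were called lower under shMETTL3-2 and not called under shMETTL3-1. COL3A1 rose under shMETTL3-2 (1.36) and changed by -0.04 under shMETTL3-1 (adjusted p = 0.883). The summed marker score was 165547 to 173240 in shLuc, 137313 to 137684 under shMETTL3-1 and 98521 to 103802 under shMETTL3-2. COL1A1 had the largest score in that sum and stood at the truncated maximum in the libraries of shLuc and shMETTL3-1. The lower sum under shMETTL3-1 thus takes nothing from COL1A1, and the sum does not show the rise of COL3A1. TAGLN scored 31936 in both shLuc libraries and 8670 and 7901 under shMETTL3-1. Such sums add scores of different genes and serve only to describe the marker lists. Hepatocyte markers were listed for 2 of 7 genes, ALB and SERPINA1, with sums of 236 to 342 in shLuc, 292 to 296 under shMETTL3-1 and 218 to 237 under shMETTL3-2, and 1 call, the rise of SERPINA1 under shMETTL3-1 (0.63). Endothelial markers (3 of 6) summed to 346 to 368, 211 to 216 and 739 to 741 in the same order of groups. Of them CDH5 (-2.23, then -4.54) and VWF (-1.15, then -0.75) fell and TEK rose (0.41, then 2.70). Macrophage markers (3 of 6) summed to 841 to 867, 1167 to 1514 and 1446 to 1451, where CD68 rose (2.86-fold, then 2.84-fold) and CD14 and PTPRC were not called. Bile duct markers (2 of 4) summed to 434 to 442, 812 to 980 and 384 to 484, where SOX9 rose under shMETTL3-1 (1.22) and KRT7 was not called. PTPRC, a leukocyte marker, was at 0 in 1 library, and no other listed marker was at 0. The part of these differences in the results was not tested. In bulk libraries, fewer cells of a kind and less RNA per cell cannot be told apart.

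More of the matrix genes were lower than higher with either hairpin. Each gene was fitted by limma as the log2 of the score plus 1, and called at a Benjamini-Hochberg adjusted p under 0.05 over all genes tested. With shMETTL3-1 against shLuc, 15 of 36 genes fell (41.7%) and 8 rose (22.2%), while 28.4% of all genes tested fell, 30.3% rose and 58.7% were called in either direction. The median log2 change of the 36 genes was -0.17, and that of all genes 0.01. With shMETTL3-2 against shLuc, 21 of 36 fell (58.3%) and 6 rose (16.7%), beside 28.8% lower, 30.8% higher and 59.6% called among all genes. Here the median was -0.38 for the matrix genes and 0.01 for all genes. Large changes were also counted: 11 of 36 (30.6%) changed by more than 1 on the log2 scale under shMETTL3-1 and 12 (33.3%) under shMETTL3-2, against 13.2% and 13.7% of all genes. Both comparisons share the shLuc libraries. The genes were chosen with earlier results of these data known, so the shares describe the list and are not a test of it.

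**Figure D1:**
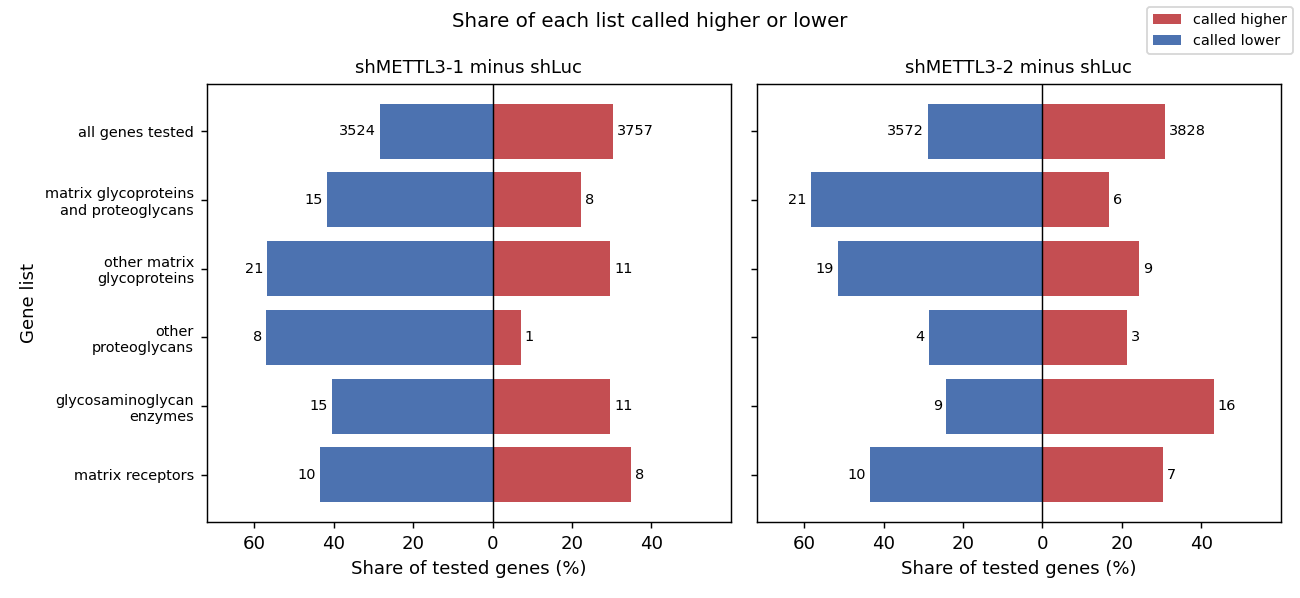
Share of tested genes called higher (red, to the right) or lower (blue, to the left) against shLuc, in percent on the horizontal axis, for each gene list and each hairpin, with the number of genes at the end of each bar. The bar of matrix glycoproteins and proteoglycans reaches 41.7% and 58.3% on the lower side, and that of all genes 28.4% and 28.8%. The list labelled glycosaminoglycan enzymes also holds the transporters SLC26A2 and SLC35B2, and that of other proteoglycans also holds the link proteins HAPLN1 and HAPLN3.

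The adhesive and matricellular proteins held the largest falls of the set. MAMDC2, a secreted protein of the matrix with MAM domains, scored 6239 and 7376 in shLuc, 31 and 40 under shMETTL3-1, and 916 and 1048 under shMETTL3-2. The 3 groups did not overlap, and both knockdown groups lay below every control library. The fall was 187.3-fold under shMETTL3-1 (log2 -7.55, SE 0.142, adjusted p = 5e-07) and 6.92-fold under shMETTL3-2 (log2 -2.79, adjusted p = 9.87e-06). The lowest scores lie close to the floor, and with a pseudocount of 10 the first fall was -7.23 on the log2 scale.

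TNC is tenascin-C, a large glycoprotein that is scarce in healthy adult tissue and appears at sites of injury. It stood at the shared maximum in both shLuc libraries, at 3266 and 3311 under shMETTL3-1, and at 7093 and 9719 under shMETTL3-2. The fitted falls were 22.06-fold (log2 -4.46, adjusted p = 2.56e-06) and 8.74-fold (log2 -3.13, adjusted p = 8.36e-06). Since the control value is truncated, the falls may be larger than the scores show. SDC4, described with the cell surface proteoglycans, came next in size with both hairpins.

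The promoters of these 3 genes and of EFEMP1, the gene with the largest rise under shMETTL3-2, are shown to place the strongest changes on the genome. Each window runs from 250 bases before to 50 bases after the start site that the table gives, in hg19, and is read 5′ to 3′ on the strand of the gene. The lines cover MAMDC2 at chr9:72658247-72658546 (plus strand), TNC at chr9:117880487-117880786 (minus), SDC4 at chr20:43977015-43977314 (minus) and EFEMP1 at chr2:56151225-56151524 (minus). Capitals mark the core of the TEAD motif, spelled GGAATG. They also mark the TATA box, searched as the letters TATAAA, and both motifs were searched on either strand.
MAMDC2: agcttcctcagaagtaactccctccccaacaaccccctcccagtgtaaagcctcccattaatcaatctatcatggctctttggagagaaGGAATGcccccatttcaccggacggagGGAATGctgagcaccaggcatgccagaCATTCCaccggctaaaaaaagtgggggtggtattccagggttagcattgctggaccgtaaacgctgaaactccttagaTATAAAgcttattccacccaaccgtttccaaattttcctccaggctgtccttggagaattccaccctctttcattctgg
TNC: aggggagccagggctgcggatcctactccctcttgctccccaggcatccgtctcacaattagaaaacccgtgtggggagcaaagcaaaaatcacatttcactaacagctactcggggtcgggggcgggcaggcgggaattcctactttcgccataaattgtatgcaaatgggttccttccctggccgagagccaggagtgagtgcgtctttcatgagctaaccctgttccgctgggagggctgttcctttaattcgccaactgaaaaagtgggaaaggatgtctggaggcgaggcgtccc
SDC4: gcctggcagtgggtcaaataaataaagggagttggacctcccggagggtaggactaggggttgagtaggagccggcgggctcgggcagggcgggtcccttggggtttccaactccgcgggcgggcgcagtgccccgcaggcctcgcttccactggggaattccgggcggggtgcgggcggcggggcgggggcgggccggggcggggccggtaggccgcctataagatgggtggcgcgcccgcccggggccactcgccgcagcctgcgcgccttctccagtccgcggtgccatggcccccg
EFEMP1: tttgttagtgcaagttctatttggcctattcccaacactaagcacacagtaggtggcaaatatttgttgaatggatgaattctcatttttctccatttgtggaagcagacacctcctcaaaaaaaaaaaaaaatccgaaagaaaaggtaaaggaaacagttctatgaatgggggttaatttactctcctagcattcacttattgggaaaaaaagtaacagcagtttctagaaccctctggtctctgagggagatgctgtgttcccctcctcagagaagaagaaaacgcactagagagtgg

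The MAMDC2 window held 3 copies of GGAATG. They began 161, 134 and 107 bases before the listed start site, the last on the opposite strand, and TATAAA began 29 bases before it. Of the 12413 windows of all genes tested, 15 (0.121%) held 3 or more copies of GGAATG and 1466 (11.8%) held at least 1. Among the 36 matrix genes 6 held at least 1 (16.7%), namely DCN, FBLN5, FBLN7, FBN2, MAMDC2 and THBS1. TATAAA was in 5 of 36 windows (13.9%) and in 8.02% of all. The AP-1 motif TGANTCA was in 1, that of POSTN (2.78%, against 5.32% of all windows), and the CArG box, the site of serum response factor, was in 0 of 36 and in 1.34% of all. GGAATG and TATAAA do not overlap in the MAMDC2 window, and a match is a run of letters and not a measured binding site. The start site in the table lay within 50 bases of the GENCODE start of the same transcript for 24 of 36 genes. It lay 267 bases from it for MAMDC2 and 100 for TNC, and 0 bases for SDC4 and EFEMP1. It also lay 0 bases from it for EFEMP2, FBLN5, HSPG2, LAMA5 and LAMB2, whose listed transcripts are not classed as protein coding. A match to the start of the listed transcript therefore does not show that a window is the main promoter of its gene. This holds for FBLN5, 1 of the 6 genes with GGAATG.

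**Figure D2:**
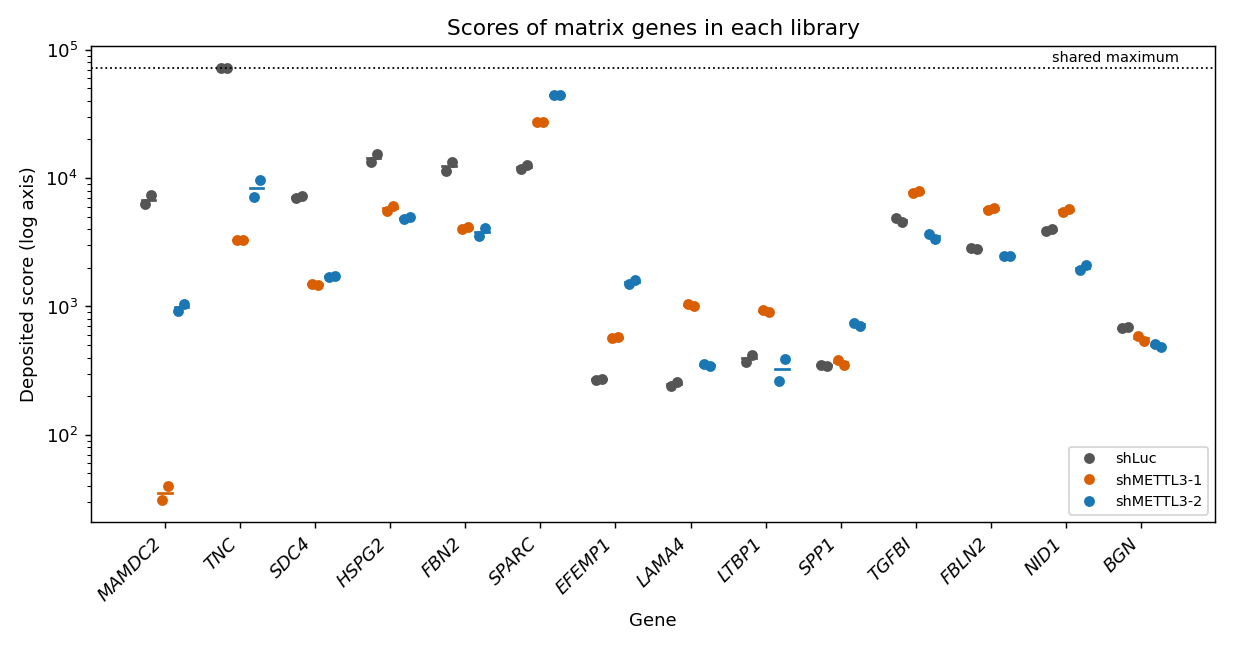
Deposited scores (log axis) of 14 matrix genes in each of the 6 libraries, with 1 point per library, a short bar at each group mean, and a dotted line at the shared maximum of 72566. MAMDC2 drops to 31 and 40 under shMETTL3-1, TNC leaves the maximum with both hairpins, and SPARC and EFEMP1 climb from shLuc to shMETTL3-1 to shMETTL3-2.

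SPARC, a collagen-binding matricellular glycoprotein, rose with both hairpins. It scored 11798 and 12564 in shLuc, 27406 in both shMETTL3-1 libraries and 44404 in both shMETTL3-2 libraries. The groups did not overlap, and the rises were 2.25-fold (adjusted p = 5.67e-06) and 3.65-fold (adjusted p = 1.19e-06). High scores are shared by several genes, so the ties within the knockdown groups are steps of the scale and not a measured precision. SPP1 is osteopontin, a secreted ligand of integrins and CD44. It scored 350 and 344 in shLuc, 384 and 350 under shMETTL3-1, and 742 and 706 under shMETTL3-2. Only its change under shMETTL3-2 was called (log2 1.06, adjusted p = 3.45e-05; log2 0.08, adjusted p = 0.424 under shMETTL3-1), and the hairpins differed by 0.98 (adjusted p = 4.2e-05).

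TGFBI, an adhesion protein induced by TGF-beta, moved in opposite directions with the hairpins. It scored 4850 and 4552 in shLuc, 7718 and 7935 under shMETTL3-1, and 3672 and 3367 under shMETTL3-2. The rise was 1.67-fold (adjusted p = 5.83e-05) and the fall 1.34-fold (adjusted p = 0.000875). THBS1, thrombospondin-1, which activates latent TGF-beta, scored 31996 and 27620 in shLuc, 11864 and 12616 under shMETTL3-1, and 31996 and 44536 under shMETTL3-2. It fell under shMETTL3-1 (log2 -1.28, adjusted p = 0.000736), and its groups overlapped between shLuc and shMETTL3-2 (log2 0.34, adjusted p = 0.108). Without shMETTL3-2 replicate 1 the latter change was 0.58 and was called. THBS2, its paralog, fell under shMETTL3-2 by 0.20 on the log2 scale, a call that was lost without shLuc replicate 1 (-0.18), and had a change of 0.07 under shMETTL3-1 (adjusted p = 0.235).

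FN1, fibronectin, the principal adhesive glycoprotein of connective tissue, stood at the maximum of 72566 in all 6 libraries, so no change could be measured. POSTN, periostin, scored 188 and 287 in shLuc, 110 and 238 under shMETTL3-1, and 268 and 106 under shMETTL3-2. Its replicates differed by up to 1.33 on the log2 scale, the widest gap of the 36 genes, and the intervals of its changes ran from -2.24 to 1.21 and from -2.18 to 1.27. Under shMETTL3-1, 3 of the 9 adhesive and matricellular genes fell (33.3%) and 2 rose (22.2%), against 28.4% and 30.3% of all genes. Under shMETTL3-2, 4 of the 9 fell (44.4%) and 2 rose (22.2%), against 28.8% and 30.8%. Without FN1, the median log2 changes of the other 8 were -0.22 and -0.31.

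**Figure D3:**
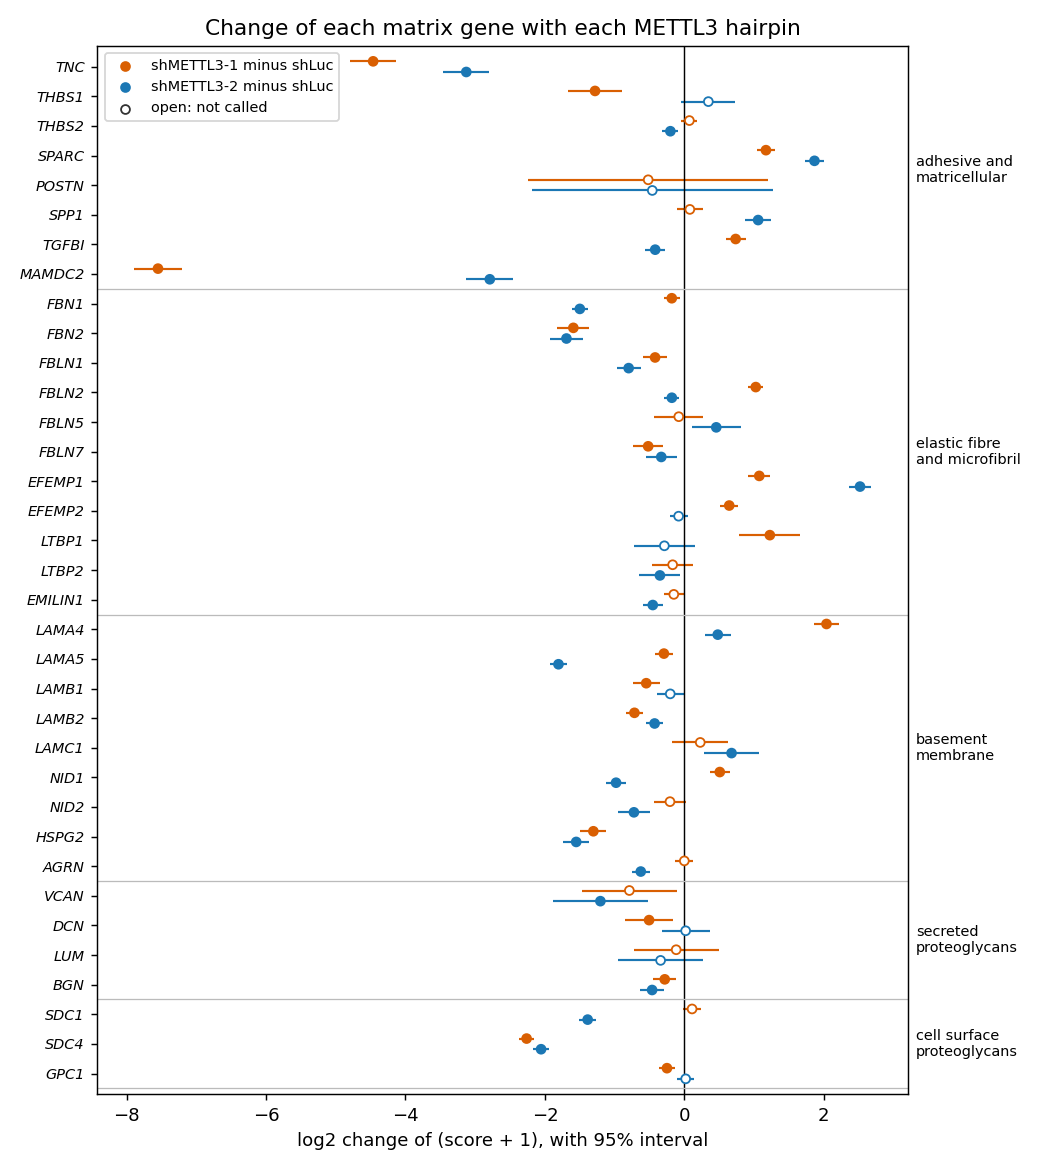
Log2 change of (score + 1) against shLuc with its 95% interval for 35 matrix genes grouped by role, in orange for shMETTL3-1 and blue for shMETTL3-2. Filled points are called and open points are not, FN1 is left out because all its scores are truncated, and the falls of MAMDC2 (-7.55 and -2.79), TNC (-4.46 and -3.13) and SDC4 (-2.26 and -2.05) stand farthest to the left.

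Genes of elastic fibres and microfibrils divided between rises and falls. Fibrillins form the microfibrils on which elastin is laid down and which store latent TGF-beta. FBN2, the fibrillin best known from development, scored 11356 and 13374 in shLuc, 4030 and 4146 under shMETTL3-1, and 3546 and 4108 under shMETTL3-2. It fell 3.01-fold and 3.23-fold (adjusted p = 1.9e-05 and 1.41e-05), both knockdown groups lay below the controls, and the hairpins overlapped (difference -0.10, 95% interval -0.33 to 0.13). FBN1, the main fibrillin of adult tissue, scored 22092 in both shLuc libraries, 19500 in both shMETTL3-1 libraries, and 7709 and 7926 under shMETTL3-2. Its fall was 2.83-fold under shMETTL3-2 (adjusted p = 1.56e-06). With shMETTL3-1 it was 1.13-fold, and that call was lost when any 1 of the 4 libraries of shLuc and shMETTL3-1 was left out (log2 -0.18 in each case).

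EFEMP1, also called fibulin-3, had the largest rise of the 36 genes under shMETTL3-2, and the fourth largest under shMETTL3-1, after LAMA4, LTBP1 and SPARC. It scored 269 and 273 in shLuc, 568 and 576 under shMETTL3-1, and 1507 and 1613 under shMETTL3-2. The groups lay in 3 separate steps, with rises of 2.11-fold (adjusted p = 1.55e-05) and 5.74-fold (adjusted p = 7.71e-07). EFEMP2, fibulin-4, which is needed for elastic fibre assembly, scored 2904 and 2752, then 4490 and 4348, then 2592 and 2752 in the same order of groups. It rose under shMETTL3-1 (log2 0.64, adjusted p = 6.47e-05) and changed by -0.08 under shMETTL3-2 (adjusted p = 0.236).

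FBLN2, fibulin-2, which bridges basement membranes and elastic fibres, scored 2846 and 2798 in shLuc, 5632 and 5852 under shMETTL3-1, and 2492 in both shMETTL3-2 libraries. It rose 2.03-fold under shMETTL3-1 (adjusted p = 4.22e-06) and fell 1.13-fold under shMETTL3-2 (adjusted p = 0.0126). The call of the small fall was lost without shLuc replicate 1 (log2 -0.17). FBLN1, fibulin-1, fell under either hairpin (log2 -0.42 and -0.80), and FBLN7, a fibulin that binds cells, also fell (-0.52 and -0.33). The FBLN7 call under shMETTL3-2 was lost without shLuc replicate 2 (-0.26) or shMETTL3-2 replicate 1 (-0.30). FBLN5, fibulin-5, scored between 88 and 140 over the 6 libraries. Its rise under shMETTL3-2 (log2 0.46, adjusted p = 0.0317) was lost without shLuc replicate 1 (0.34), without shMETTL3-2 replicate 1 (0.37) or without either shMETTL3-1 library (0.46).

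Latent TGF-beta binding proteins tether the cytokine to microfibrils. LTBP1 scored 366 and 421 in shLuc, 934 and 906 under shMETTL3-1, and 264 and 392 under shMETTL3-2. It rose 2.34-fold under shMETTL3-1 (adjusted p = 0.00137), whereas its shMETTL3-2 libraries overlapped the controls (log2 -0.29, adjusted p = 0.217). Without shMETTL3-2 replicate 2 that change was -0.57 and was called. LTBP2, a relative that does not bind TGF-beta, scored 144 to 206 over all libraries. Its fall under shMETTL3-2 (log2 -0.35, adjusted p = 0.0445) was lost when any 1 library other than shLuc replicate 2 was left out (log2 -0.22 to -0.38). EMILIN1, a glycoprotein at the interface of elastin and microfibrils, fell under shMETTL3-2 (log2 -0.45, adjusted p = 0.000659) and changed by -0.15 under shMETTL3-1 (adjusted p = 0.0734). Of the 11 genes of elastic fibres and microfibrils, 4 fell and 4 rose (36.4% each) under shMETTL3-1, against 28.4% and 30.3% of all genes. Under shMETTL3-2, 7 fell (63.6%) and 2 rose (18.2%), against 28.8% and 30.8%. The median log2 changes of the 11 genes under shMETTL3-1 and shMETTL3-2 were -0.15 and -0.33.

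Of the 9 basement membrane genes, 4 fell (44.4%) and 2 rose (22.2%) under shMETTL3-1, against 28.4% lower and 30.3% higher among all genes. Under shMETTL3-2, 6 fell (66.7%) and 2 rose (22.2%), against 28.8% and 30.8%. Their median log2 changes under shMETTL3-1 and shMETTL3-2 were -0.21 and -0.62. A laminin is a trimer of an alpha, a beta and a gamma chain, and the alpha chain carries the main sites for cell receptors. LAMA4, an alpha chain of mesenchymal and vascular cells, scored 241 and 260 in shLuc, 1052 and 1012 under shMETTL3-1, and 358 and 341 under shMETTL3-2. It rose 4.11-fold and 1.39-fold (adjusted p = 2.42e-06 and 0.00143), and the 3 groups did not overlap. LAMA5, a widespread alpha chain, scored 3664 and 3818 in shLuc, 2968 and 3140 under shMETTL3-1, and 1056 and 1083 under shMETTL3-2. It fell 1.23-fold and 3.50-fold (adjusted p = 0.00255 and 1.13e-06).

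LAMB2, a beta chain, fell with both hairpins (log2 -0.72 and -0.43, adjusted p = 3.08e-05 and 0.000357). LAMB1, another beta chain, scored 4671 and 4392, then 3220 and 2986, then 4260 and 3640. It fell under shMETTL3-1 (log2 -0.55, adjusted p = 0.00109), and all its shMETTL3-2 libraries lay below the controls without passing (log2 -0.20, adjusted p = 0.0715). Without shMETTL3-2 replicate 1 that change was -0.32 and was called. LAMC1, the most common gamma chain, scored 10210 and 13355 in shLuc, 12140 and 15412 under shMETTL3-1, and 17906 and 19475 under shMETTL3-2. Its rise under shMETTL3-2 (log2 0.68, adjusted p = 0.0129) was lost without shMETTL3-2 replicate 2 (0.62), and under shMETTL3-1 the libraries overlapped the controls (log2 0.23, adjusted p = 0.274).

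HSPG2 encodes perlecan, the large heparan sulfate proteoglycan of basement membranes. It scored 13344 and 15393 in shLuc, 5564 and 6047 under shMETTL3-1, and 4832 and 4950 under shMETTL3-2. It fell 2.47-fold and 2.93-fold (adjusted p = 1.38e-05 and 6.74e-06), and neither knockdown group reached the controls. AGRN, agrin, another heparan sulfate proteoglycan, scored 10760 and 11342 in shLuc and had the same 2 scores under shMETTL3-1. It fell to 7236 and 7093 under shMETTL3-2 (log2 -0.62, adjusted p = 7.61e-05). The identical AGRN scores are steps of the scale, shared with other genes, and not a precise measure of no change.

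Nidogens link the laminin and collagen IV networks. NID1 scored 3894 and 3994 in shLuc, 5450 and 5776 under shMETTL3-1, and 1913 and 2091 under shMETTL3-2. It rose 1.42-fold under shMETTL3-1 (adjusted p = 0.000323) and fell 1.97-fold under shMETTL3-2 (adjusted p = 1.44e-05). NID2 scored 600 and 611, then 513 and 537, then 334 and 402, falling under shMETTL3-2 (log2 -0.72, adjusted p = 0.000619). Its change of -0.21 under shMETTL3-1 did not pass (adjusted p = 0.112), and passed without either shMETTL3-2 library (-0.21).

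BGN, VCAN, DCN and LUM are the secreted chondroitin or dermatan sulfate and leucine-rich proteoglycans among the 36 genes. Of them, 2 fell (50%) and 0 rose under each hairpin. Among all genes, 28.4% fell and 30.3% rose under shMETTL3-1, and 28.8% fell and 30.8% rose under shMETTL3-2. BGN, biglycan, a small leucine-rich proteoglycan that binds collagen, scored 678 and 692 in shLuc, 585 and 543 under shMETTL3-1, and 508 and 486 under shMETTL3-2. It fell 1.22-fold and 1.38-fold (adjusted p = 0.0116 and 0.00109), and the first call was lost without shLuc replicate 2 (log2 -0.27) or shMETTL3-1 replicate 2 (-0.23). VCAN, versican, a large hyaluronan-binding proteoglycan, scored 342 and 284 in shLuc, 225 and 144 under shMETTL3-1, and 168 and 108 under shMETTL3-2. It fell under shMETTL3-2 (log2 -1.20, adjusted p = 0.0107) and lay at the threshold under shMETTL3-1 (log2 -0.79, adjusted p = 0.0516). The first call was lost without shLuc replicate 1 (-1.07), and the second was gained without shMETTL3-1 replicate 1 (-1.11) or without either shMETTL3-2 library (-0.79).

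DCN, decorin, which binds collagen and TGF-beta, scored 320 and 267, then 231 and 183, then 311 and 282. It fell under shMETTL3-1 (log2 -0.51, adjusted p = 0.0202), a call lost without shLuc replicate 1 (-0.38) or shMETTL3-1 replicate 2 (-0.34), and changed by 0.02 under shMETTL3-2 (adjusted p = 0.923). LUM, lumican, which shapes collagen fibrils, scored 245 and 311, then 255 and 254, then 284 and 167, and neither change passed (log2 -0.12 and -0.34, adjusted p = 0.724 and 0.286). Without shMETTL3-2 replicate 1 its change with that hairpin was -0.72 and was called.

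At the cell surface, syndecans span the membrane and glypicans are anchored by a lipid, and both present growth factors on heparan sulfate. SDC4, the syndecan of focal adhesions, scored 6990 and 7251 in shLuc, 1486 and 1480 under shMETTL3-1, and 1694 and 1732 under shMETTL3-2. It fell 4.80-fold and 4.15-fold (adjusted p = 5e-07 and 6.17e-07), and all 4 knockdown libraries lay far below the controls. SDC1, syndecan-1, scored 3558 and 3632, then 3753 and 4016, then 1350 and 1399. It fell 2.62-fold under shMETTL3-2 (adjusted p = 2.41e-06), and its change under shMETTL3-1 was 0.11 on the log2 scale (adjusted p = 0.114). GPC1, glypican-1, scored 9948 and 9719, then 8272 in both libraries, then 9719 and 10216. It fell under shMETTL3-1 (log2 -0.25, adjusted p = 0.00458) and changed by 0.02 under shMETTL3-2 (adjusted p = 0.766).

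The hairpins were compared with each other, a difference that takes no level from the control libraries. Of the 36 genes 12 were higher (33.3%) and 15 lower (41.7%) under shMETTL3-2 than under shMETTL3-1, beside 31.9% and 31.1% of all genes, of which 63% were called in either direction. A difference of more than 1 on the log2 scale was found for 12 of 36 genes (33.3%), against 15.8% of all genes. MAMDC2 differed most, being 4.76 higher under shMETTL3-2 (adjusted p = 1.24e-06). THBS1 (1.63), EFEMP1 (1.45) and TNC (1.34) were also higher under shMETTL3-2.

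On the other side, LAMA4 (-1.56), LTBP1 (-1.51), LAMA5 (-1.51), SDC1 (-1.50), NID1 (-1.49), FBN1 (-1.32), FBLN2 (-1.20) and TGFBI (-1.15) were lower under shMETTL3-2. SDC4 differed by 0.21 (adjusted p = 0.00663) and HSPG2 by -0.25 (adjusted p = 0.028). The HSPG2 call was lost without shMETTL3-1 replicate 2 (-0.19), shMETTL3-2 replicate 1 (-0.23) or shMETTL3-2 replicate 2 (-0.26). Smaller differences were called higher for SPARC (0.70), DCN (0.52), FBLN5 (0.54), LAMB1 (0.34), LAMB2 (0.29) and GPC1 (0.27). The call was lost for DCN without shMETTL3-1 replicate 2 (0.36) or shMETTL3-2 replicate 1 (0.45), for LAMB1 without shMETTL3-1 replicate 2 (0.29), and for FBLN5 without shMETTL3-1 replicate 1 (0.58), shMETTL3-1 replicate 2 (0.50) or shMETTL3-2 replicate 1 (0.45).

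EFEMP2 (-0.73), AGRN (-0.62), NID2 (-0.52), FBLN1 (-0.38), EMILIN1 (-0.30) and THBS2 (-0.27) were lower under shMETTL3-2. The difference did not pass for FN1, POSTN, FBN2, FBLN7, LTBP2, LAMC1, VCAN, LUM and BGN. For LAMC1 it was 0.45 (adjusted p = 0.0526), and it passed without either shLuc library (0.45) or without shMETTL3-1 replicate 2 (0.62). For LUM it was -0.22 (adjusted p = 0.474), and it passed without shMETTL3-2 replicate 1 (-0.60).

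**Figure D4:**
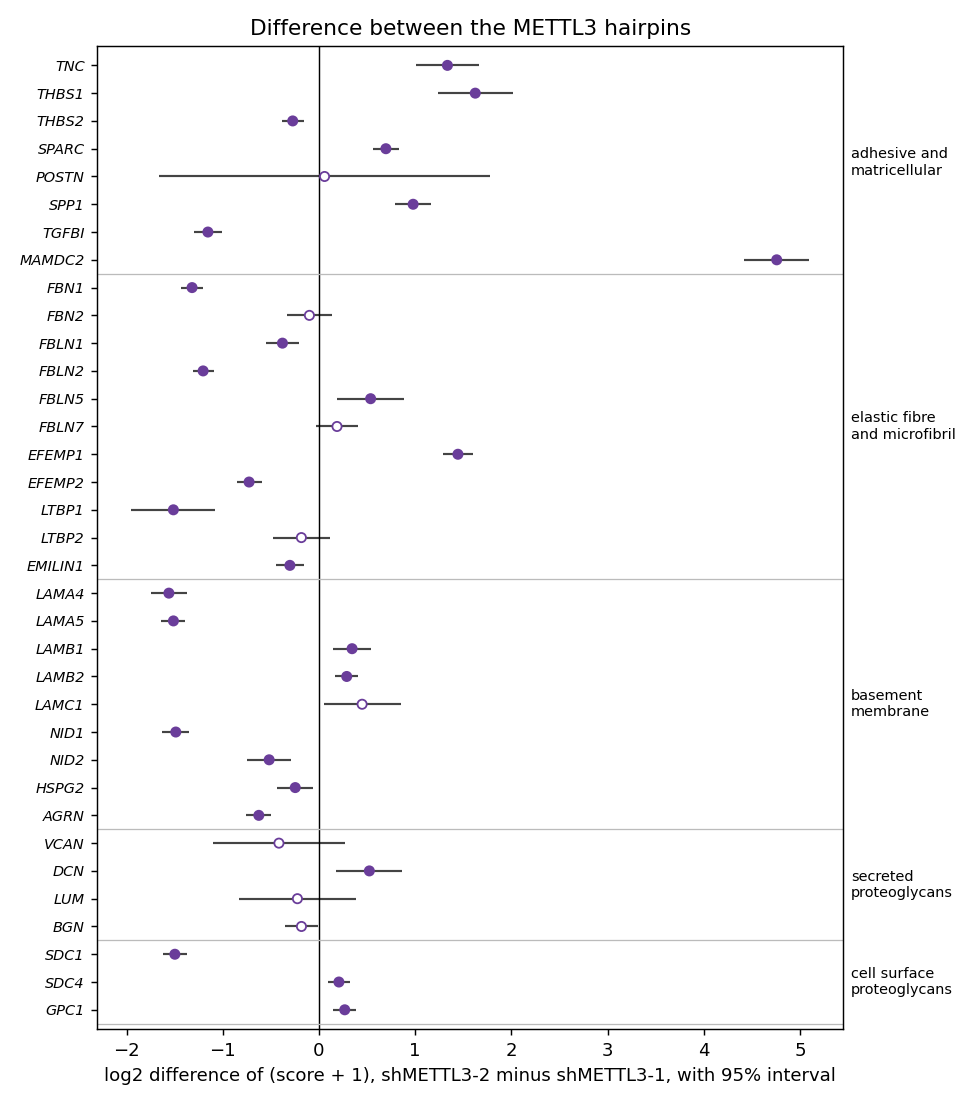
Log2 difference of (score + 1) between the METTL3 hairpins, shMETTL3-2 minus shMETTL3-1, with its 95% interval, for 35 matrix genes grouped by role, without FN1. Filled points are called and open points are not; MAMDC2 lies farthest to the right at 4.76, and LAMA4, LTBP1 and LAMA5 farthest to the left at -1.56, -1.51 and -1.51.

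Of 37 other matrix glycoproteins tested, 21 fell (56.8%) and 11 rose (29.7%) under shMETTL3-1, against 28.4% and 30.3% of all genes. Under shMETTL3-2, 19 fell (51.4%) and 9 rose (24.3%), against 28.8% and 30.8%. The median log2 changes of this list under shMETTL3-1 and shMETTL3-2 were -0.44 and -0.28. Laminin chains are also in this list: LAMA1 rose under either hairpin (log2 0.23 and 1.81), LAMA2 fell under shMETTL3-1 and rose under shMETTL3-2 (-0.30 and 0.96), and LAMA3 (-0.56) and LAMB3 (-0.85) fell under shMETTL3-1. LAMA3 and LAMB3 changed by -0.39 and 0.17 under shMETTL3-2 (adjusted p = 0.0583 and 0.131). VTN, vitronectin, an adhesive ligand of integrins, had the largest fall with both hairpins, from 712 and 646 in shLuc to 88 and 82 under shMETTL3-1 and 135 and 140 under shMETTL3-2 (log2 -2.98 and -2.29, adjusted p = 1.99e-06 and 4.55e-06). THSD4 rose most under shMETTL3-1 (1.14) and ABI3BP under shMETTL3-2 (2.01). ABI3BP fell under shMETTL3-1 (-0.47), and of this list it had the largest difference between the hairpins (2.48, adjusted p = 2.61e-06), while CRISPLD2 had the largest in the other direction (-1.91).

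Of 14 other proteoglycans, 8 fell (57.1%) and 1 rose (7.14%) under shMETTL3-1, against 28.4% and 30.3% of all genes. Under shMETTL3-2, 4 fell (28.6%) and 3 rose (21.4%), against 28.8% and 30.8%, so the share that fell was near that of all genes. SDC2, the syndecan-2 gene, scored 846 and 924 in shLuc, 251 and 261 under shMETTL3-1, and 1341 and 1450 under shMETTL3-2. It fell and rose, respectively, past the threshold (log2 -1.78 and 0.66, adjusted p = 3.43e-06 and 0.000273), and the hairpins differed by 2.44 (adjusted p = 9.59e-07). SDC3, another syndecan, went the other way, with changes of 0.20 and -0.51. SRGN, serglycin, a proteoglycan of secretory granules, fell under shMETTL3-1 (log2 -0.52, adjusted p = 0.00018) and rose under shMETTL3-2 (1.34, adjusted p = 2.92e-06). TGFBR3, the proteoglycan co-receptor betaglycan, fell under either hairpin (-1.27 and -0.93, adjusted p = 5.78e-05 and 0.000249). HAPLN1 was listed at 0 in shMETTL3-1 replicate 1 and shMETTL3-2 replicate 2 and was not called. HAPLN1 and HAPLN3 are link proteins and not proteoglycans, and HAPLN3 is 1 of the 8 genes that fell under shMETTL3-1 (log2 -1.69).

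Of 23 matrix receptors, 10 fell (43.5%) and 8 rose (34.8%) under shMETTL3-1, against 28.4% lower and 30.3% higher among all genes. Under shMETTL3-2, 10 fell (43.5%) and 7 rose (30.4%), against 28.8% and 30.8%. ITGB3, the integrin beta chain that pairs with alpha v to bind vitronectin and osteopontin, fell from 3296 and 3465 to 318 and 340 under shMETTL3-1 and to 253 and 252 under shMETTL3-2 (log2 -3.36 and -3.74, adjusted p = 5e-07 and 3.77e-07). ITGA2, a collagen-binding alpha chain, rose from 42 and 39 to 284 and 268 and to 308 and 344 (log2 2.74 and 2.98). ITGAV, the alpha v chain, rose under shMETTL3-1 (1.56) and fell under shMETTL3-2 (-0.41), the largest negative difference between hairpins in this list (-1.97, adjusted p = 9.31e-07). ITGA10, another collagen-binding chain, had the largest positive one (1.58).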

How the data were processed

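RNA-seq was deposited for 6 libraries of LX2 cells in 3 groups of 2, as 1 table of whole numbers per gene with the listed transcript and its position. Per the labels, reads were mapped to hg19. DESeq2 is named without a role in the submitters' processing notes. The aligner, counting tool, strand setting and annotation were not given in the sources used here. What was deposited was treated as a score, since the 6 columns sum to between 16535130 and 16536605 and 87.3% of ranks hold the same value in all libraries. Counting error and depth can thus not be given, and no count model or scaling was used.

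Genes with a mean score of 50 or more were fitted across all genes with limma 3.58.1 in R 4.3.3, on log2(score + 1), using a group-means design, a trend of variance on level, and robust moderation. This left 3 residual degrees of freedom. P-values are two-sided. Fold changes are on this scale.

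The genes and lists were chosen with earlier results of these data known. All 36 genes are named. Scores in full are given for the 3 largest rises and falls with each hairpin, opposite calls and examples of each role, and the list extremes are named. Ties within a group occur for 8 genes (FN1, TNC, THBS2, SPARC, FBN1, FBLN2, EMILIN1 and GPC1). Where the SE of such a gene is small, it is not a measured precision. TNC, whose tie is at the truncated maximum, had an SE of 0.136. For 6 genes (EFEMP2, FBLN5, HSPG2, LAMA5, LAMB1 and LAMB2) the listed transcript is not classed as protein coding, and 16 of 36 overlap an antisense gene in exons, among them MAMDC2, TNC, SPARC, HSPG2 and NID2, so reads of both strands may be joined. Promoter windows were read from GRCh37, whose positions are those of hg19.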

Additional observations from a re-analysis of the deposited data

Results flagged for a closer look

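For 3 genes the hairpins gave called changes in opposite directions against shLuc and also differed when set against each other. NID1 differed by -1.49 on the log2 scale (shMETTL3-2 minus shMETTL3-1, adjusted p = 2.43e-06), with changes of 0.51 and -0.98 against shLuc. FBLN2 differed by -1.20 (adjusted p = 1.95e-06), with changes of 1.02 and -0.18, of which the second was lost without shLuc replicate 1 (-0.17). TGFBI differed by -1.15 (adjusted p = 6.56e-06), with changes of 0.74 and -0.42. In each of the 3 genes every shMETTL3-1 library lay above and every shMETTL3-2 library below the shLuc libraries. The METTL3 score itself was lower under shMETTL3-2 than under shMETTL3-1 (log2 -0.92, adjusted p = 0.00016), and its part in these differences was not tested.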

How the results depend on the processing

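No count of matrix genes called or of all genes called moved past 1.5 times, and no median of the matrix genes changed sign, under the alternatives run. These were a pseudocount of 10, no filter, a mean of 200 or more, no genes at the maximum, and no trend together with no robust moderation. The others were centring on the library median, a replicate block, only the groups compared, and each library left out in turn. With a library left out, the median log2 change of the matrix genes was -0.209 to -0.162 under shMETTL3-1 and -0.423 to -0.33 under shMETTL3-2. Between the hairpins, shMETTL3-2 minus shMETTL3-1, it was -0.221 to -0.124. Of 1497 repeats of a single gene's change, 1439 kept the side of the threshold, 35 lost and 23 gained a call, and 0 reversed a called change. A left-out library leaves 1 in its group, which is assumed to vary like the others.

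Replicate numbers are shared between groups, but deviations of same-numbered libraries correlated at only 0.0153 to 0.0473, so the numbers are not taken as pairs. With the replicate block 16 genes fell and 9 rose under shMETTL3-1, 22 fell and 6 rose under shMETTL3-2, and between the hairpins 16 were lower and 13 higher. Calls gained were those of VCAN and LAMC1 under shMETTL3-1 and between hairpins, and of LAMB1 under shMETTL3-2. Of all 12413 genes tested, 7698 were called under shMETTL3-1 with the block, against 7281 without it. In no alternative were more than 7769 of all genes called under shMETTL3-2 (7400 in the main fit). Between the hairpins that number was at most 8196 (7824 in the main fit). Scores without depth allow no limit on low genes, and FN1 and the control level of TNC are truncated.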

Other observations

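A further list held 37 tested genes for building or trimming hyaluronan and the sugar chains of proteoglycans. It includes the transporters SLC26A2 and SLC35B2 beside enzymes. Of the 37 genes, 15 fell (40.5%) and 11 rose (29.7%) under shMETTL3-1, against 28.4% lower and 30.3% higher among all genes. Under shMETTL3-2, 9 fell (24.3%) and 16 rose (43.2%), against 28.8% and 30.8%, and the shares under the hairpins were not tested against each other. HAS2, the main hyaluronan synthase of connective tissue cells, scored 178 and 136 in shLuc, 47 and 60 under shMETTL3-1, and 633 and 646 under shMETTL3-2. It fell and rose past the threshold (log2 -1.53 and 2.03, adjusted p = 0.000231 and 5.83e-05), and the hairpins differed by 3.57 (adjusted p = 4.29e-06). HPSE, heparanase, which cuts heparan sulfate, scored 87 and 100, then 37 and 24, then 193 and 234, and differed by 2.79 (adjusted p = 4.64e-05). HAS3, another hyaluronan synthase, fell with both hairpins, from 374 and 300 to 72 and 102 and to 72 and 90 (log2 -1.95 and -2.04). EXTL3, which starts heparan sulfate chains, rose from 670 and 806 to 2078 and 2101 and to 2216 and 2586 (1.51 and 1.70), and EXTL1 had the largest difference of the list in the negative direction between hairpins (-1.71).

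The letters GGACT, the commonest form of the sequence in which METTL3 methylates adenosine, were counted in the listed GENCODE transcripts, with no measurement of m6A in these data. The 36 matrix transcripts held a median of 1.11 copies per kilobase, and the 11920 matched transcripts of all genes tested 0.931. MAMDC2 held 3 copies in 3351 bases, TNC 12 in 8500, SDC4 1 in 2613, SPARC 7 in 3451 and EFEMP1 2 in 3024. The listed transcripts of LUM (2671 bases), LAMB1 (984) and LAMB2 (689) held 0 copies. Those of LAMB1 and LAMB2 are classed as retained introns, so their counts do not describe the coding transcripts. Other short listed transcripts, such as those of EFEMP2 (543 bases), FBLN1 (568) and THBS1 (582), also enter the median of the 36.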
